A study of Homo sapiens with 18 samples.

Results

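Among the 18 arrays of SH-SY5Y cells, 3 showed a strong retinoic acid response. They were chosen by the measured level of CYP26A1, with a log2 value of its one probe set above 8, and are called the selected arrays. All 3 were untreated: arrays 2 and 3 of the 6 h group, and array 3 of the 24 h group. They were compared with the other arrays of the same time, 7 at 6 h and 8 at 24 h, and all other arrays number 15. The selection thus took 3 of 6 untreated arrays and 0 of 12 cocaine arrays, so the retinoic acid response and the absence of cocaine cannot be told apart. Since a measured value chose the groups, every difference between selected and other arrays is given as a description, with no test.

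Retinoic acid, the active form of vitamin A, enters the nucleus and binds heterodimers of the receptors RAR and RXR, which sit on paired hexamers in the promoters and enhancers of their target genes. The first genes to respond include those that limit the signal: the CYP26 enzymes oxidise retinoic acid, DHRS3 turns retinaldehyde back into retinol, and RARB, itself a receptor, is induced by its own ligand. In neuroblastoma cells retinoic acid slows division and promotes neurites, and it is a common means of giving the SH-SY5Y line neuronal features.

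SH-SY5Y is a human neuroblastoma line with features of sympathetic neuroblasts. All cells received 10 µM retinoic acid for 7 days and then medium without it for 24 h. They were exposed to 0, 1 or 5 µM cocaine for 30 min and collected 6 or 24 h later, in 6 groups of 3 arrays, each array holding pooled RNA from 3 dishes of the one line, to ask which genes cocaine changes. The 5 µM arrays are labelled with that dose and, beside it, as controls, and were taken by their dose. The values are log2 RMA values, normalized by the authors separately for each time, so levels were compared only within a time. The median over all probe sets of an array lay between 4.96 and 5.01 at 6 h and between 5.30 and 5.35 at 24 h.

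CYP26A1, which encodes the main retinoic acid hydroxylase, had values of 10.69 and 10.99 on the 2 selected arrays of 6 h. On the other 7 arrays of 6 h it lay between 4.95 and 5.61, with a median of 5.20 (SD 0.255). At 24 h the selected array had 9.55 and the other 8 arrays lay between 4.92 and 6.31, with a median of 5.36 (SD 0.507). The time-adjusted difference was 5.03 on the log2 scale, or 32.7-fold. The medians of the other arrays lay near the signal filter used below, log2(40) or 5.32, so the fold rests on values near that filter. The arrays nearest below the threshold were array 3 of 5 µM at 24 h with 6.31 and untreated array 2 at 24 h with 6.04, so no array lay between 6.31 and 9.55.

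CYP26B1, the second enzyme of this kind, had 12.33 and 12.18 on the selected arrays of 6 h against 8.35 to 8.63 on the others, with a median of 8.49. At 24 h it had 11.03 against 8.24 to 9.02, with a median of 8.44, and the difference over both times was 3.30 (9.87-fold). The highest of those others was untreated array 2.

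DHRS3, the retinaldehyde reductase, had 10.78 and 10.66 at 6 h against 6.78 to 7.20, with a median of 6.90. At 24 h the selected array had 10.23, while the others spread from 7.65 to 9.18 with a median of 7.99. Its difference was 3.08 (8.47-fold). At 24 h 3 of the other arrays stood above the rest, with 9.18 on array 3 of 5 µM, 9.01 on untreated array 2 and 8.84 on array 3 of 1 µM.

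RARB, the retinoic acid receptor beta, had 9.83 and 9.89 at 6 h against 7.88 to 8.41, and 9.66 at 24 h against 8.67 to 9.26. Its difference was 1.38 (2.60-fold), and a second probe set gave 1.22. All 4 genes thus had selected arrays above all others of their time, with a smaller distance at 24 h than at 6 h. For CYP26A1 the separation is fixed by the selection.

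**Figure D1:**
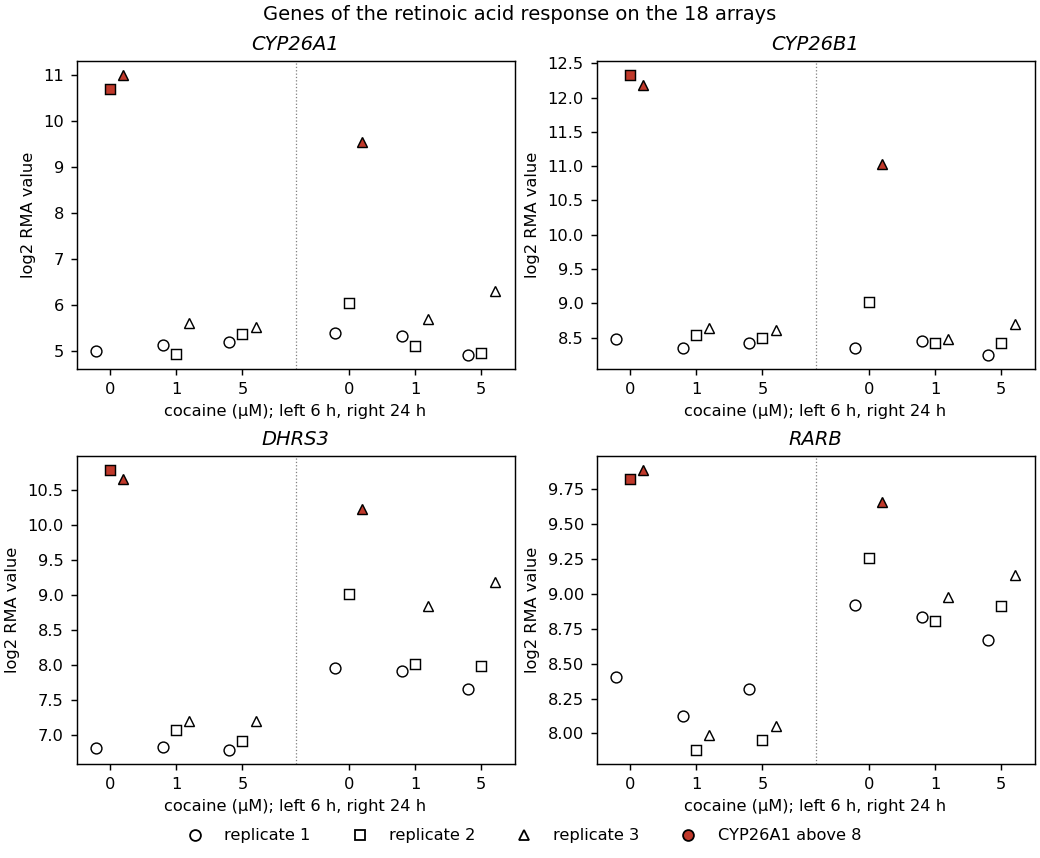
Log2 RMA values of CYP26A1, CYP26B1, DHRS3 and RARB on each of the 18 arrays, by cocaine dose and time, with 1 point an array and its shape giving the replicate number. The 3 filled points are the arrays with CYP26A1 above 8, and they lie above every open point of the same time in each panel. In the panel of CYP26A1 this follows from the selection.

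The retinoic acid receptors bind direct repeats of a hexamer, and such repeats stood just before a transcription start in 2 of the 4 marker genes, CYP26A1 and RARB. Their promoters are shown because the selection was made by one of these genes and the other encodes a receptor of the pathway. The 250 bases before the start are from RefSeq (GRCh38.p14), on the plus strand at chr10:93073643-93073892 for CYP26A1 and chr3:25428013-25428262 for RARB. The capitals mark the hexamers of a direct repeat with 5 bases between them.

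CYP26A1: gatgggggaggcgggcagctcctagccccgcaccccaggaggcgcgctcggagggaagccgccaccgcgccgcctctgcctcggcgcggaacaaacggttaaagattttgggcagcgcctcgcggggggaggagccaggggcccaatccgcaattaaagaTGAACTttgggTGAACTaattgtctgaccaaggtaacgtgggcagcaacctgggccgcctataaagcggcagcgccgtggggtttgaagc

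RARB: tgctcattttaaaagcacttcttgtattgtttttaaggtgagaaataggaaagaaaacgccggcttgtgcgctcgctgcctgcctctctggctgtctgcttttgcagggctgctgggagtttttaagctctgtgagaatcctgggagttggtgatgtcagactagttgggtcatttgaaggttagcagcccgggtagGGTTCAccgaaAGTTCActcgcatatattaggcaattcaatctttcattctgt

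In CYP26A1 the repeat reads on the minus strand and spans positions -90 to -74 from the start, and in RARB it reads on the plus strand at -53 to -37. The search took the consensus hexamer AGGTCA and 3 variants, of which AGTTCA occurs in both promoters above, GGTTCA stands first in the repeat of RARB, and GGGTCA was the last variant searched. Any pairing of the 4 was taken, as direct repeats with 1, 2 or 5 bases between them, on both strands and from 250 bases before to 50 after each start. Of 35116 RefSeq promoters 91 (0.259%) held such a repeat, 31 of them with 5 bases between (0.0883%). Of the 19 named genes counted as higher below, 17 had 32 promoters in the table, and those of CYP26A1 and RARB were the 2 with a repeat. None of the 23 promoters of 12 matched genes counted as lower had one. CYP26A1 and RARB are marker genes, and CYP26A1 chose the arrays, so their matches are not set against the share of all promoters. A match is a run of letters, and enhancers outside these windows were not searched.

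Over the 25961 probe sets whose mean over 18 arrays was above log2(40), a probe set was counted as higher or lower when its time-adjusted difference was at least 1 on the log2 scale and all selected arrays lay beyond all others at both times. By this rule 32 probe sets (0.123%) were higher and 20 (0.077%) lower on the selected arrays. The probe set of CYP26A1, which chose the arrays, is among the 32. The filter itself let 45 probe sets pass only through the selected arrays, and 0 of the counted ones were among them. The 32 higher probe sets belonged to 19 named genes, with 7 probe sets unnamed here, and the 20 lower ones to 15 named genes, with 3 unnamed. The median difference over all probe sets was 0.0022. Without the demand on size, 827 probe sets had all selected arrays above and 798 below all others of their time.

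After CYP26A1, CYP26B1 and DHRS3, the named gene with the largest difference was CLMN, which encodes calmin, a membrane protein with actin-binding domains. Its values were 9.85 and 9.97 at 6 h against 7.05 to 7.69, and 9.95 at 24 h against 8.14 to 9.37. The difference was 2.17 (4.49-fold), and 3 further probe sets of CLMN gave 1.35, 1.34 and 1.21. Of the 32 higher probe sets 6 differed by more than 4-fold, and these were the 3 retinoic acid enzymes, CLMN and 2 unnamed probe sets.

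TXK, a tyrosine kinase of the Tec family, had 9.18 and 9.63 at 6 h against 7.49 to 7.96, and 9.61 at 24 h against 8.38 to 9.19. PRKCH, protein kinase C eta, differed by 1.16 and PTPRH, a receptor tyrosine phosphatase, by 1.00. CNR1, the cannabinoid receptor of neurons, had 8.05 and 8.47 at 6 h against 6.55 to 7.57, and 8.33 at 24 h against 7.13 to 7.81, a difference of 1.09. CNGA1, a subunit of the cyclic nucleotide-gated channel, differed by 1.25.

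VPS13D, a lipid transfer protein of organelle contacts, had 3 probe sets with differences of 1.52, 1.44 and 1.29. OSBPL10, an oxysterol-binding protein relative, differed by 1.37, and PLEKHA6, which has a lipid-binding pleckstrin homology domain, by 1.17. STON1, an endocytic adaptor, differed by 1.01. The remaining named genes were POU2AF3, a coactivator of POU factors (1.47), FNDC5, the precursor of irisin (1.29), BCO2, which cleaves carotenoids (1.13), MINDY2, a deubiquitinase (1.02), and LRRTM1, a synaptic adhesion protein (1.01).

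The difference was smaller at 24 h than at 6 h in 30 of the 32 higher probe sets, with a median of 1.51 at 6 h and 0.95 at 24 h and a median ratio of 0.603. FNDC5 was an exception among the named genes, with 1.12 at 6 h and 1.61 at 24 h. In the lower probe sets the median was -1.38 at 6 h and -1.28 at 24 h, with a ratio below 1 in 9 and above 1 in 11. ID4 stood apart among them, with -2.24 at 6 h and -0.98 at 24 h. The values of 24 h rest on a single selected array, and the times were normalized apart.

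**Figure D2:**
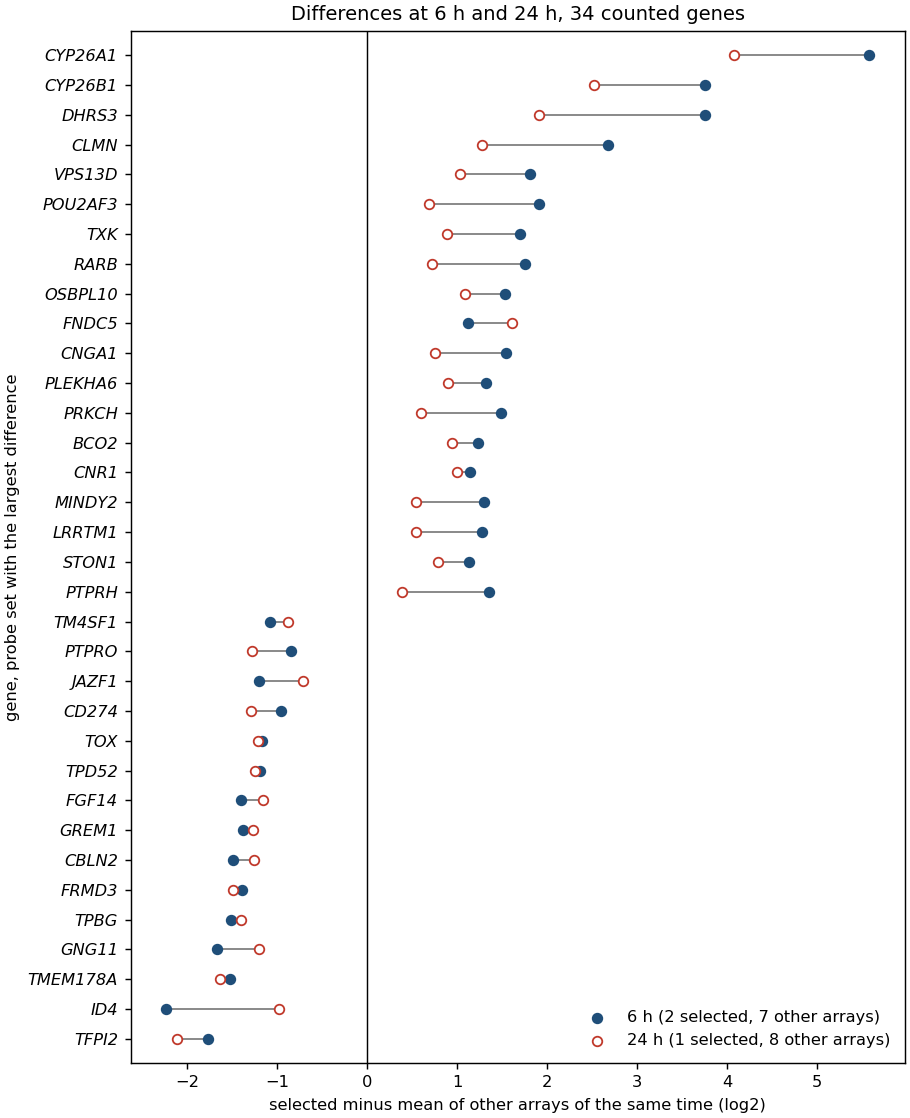
Difference between the selected arrays and the mean of the other arrays at 6 h (filled) and 24 h (open), on the log2 scale, for the 34 named genes counted as higher or lower, each at its probe set with the largest difference. Among the higher genes the open point lies nearer to 0 in all but FNDC5, whereas among the lower genes either point can be the farther one.

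The largest decrease was that of TFPI2, a secreted inhibitor of serine proteases. Its values were 9.80 and 8.89 on the selected arrays of 6 h against 10.33 to 11.86, and 9.18 at 24 h against 9.95 to 11.96. The difference was -1.89 (3.71-fold lower), and a second probe set gave -1.83. The other arrays with the number 3 were the lowest of their groups at each time, so the selected arrays extended a spread that was already wide.

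ID4, an inhibitor of basic helix-loop-helix factors and a target of BMP signalling, had 4.29 and 4.41 at 6 h against 6.36 to 6.85. At 24 h the selected array had 5.95, just below untreated array 2 with 6.05, and the rest reached 7.43. Its difference was -1.78 (3.43-fold lower), and a brighter probe set of ID4 gave -1.26 with overlap at 24 h. GREM1, a secreted antagonist of BMPs, had 5.91 and 4.79 at 6 h against 6.13 to 7.57, and 5.61 at 24 h against 6.14 to 7.25, with differences of -1.34 and -1.30 at 2 probe sets.

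Among the other lower genes were TMEM178A, a membrane protein (-1.56), GNG11, a G protein gamma subunit (-1.497), TPBG, the trophoblast glycoprotein (-1.47), FRMD3, a FERM domain protein (-1.43), CBLN2, a synaptic organizer of the cerebellin family (-1.40), and FGF14, an intracellular modulator of sodium channels (-1.31). TPD52 (-1.21), TOX, an HMG-box protein (-1.18), and CD274, the immune checkpoint ligand PD-L1 (-1.08), followed. JAZF1, a zinc finger protein (-1.02), PTPRO, a receptor tyrosine phosphatase (-1.004), and TM4SF1, a tetraspanin-like protein (-1.003), completed the list. These values are from the probe set with the largest difference. GNG11 had another probe set that differed by only -0.80. When genes were read by the probe set of highest mean instead, 8 of the 15 lower genes were still counted.

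**Figure D3:**
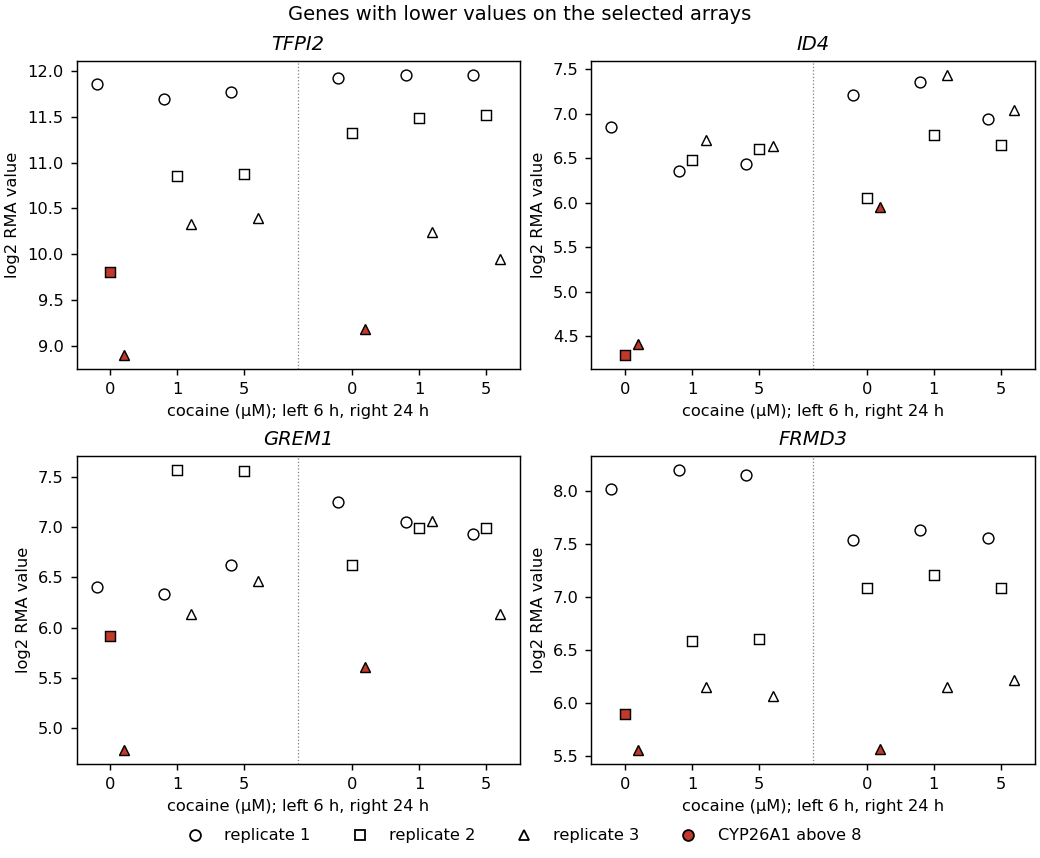
Log2 RMA values of TFPI2, ID4, GREM1 and FRMD3 on each of the 18 arrays, by cocaine dose and time, with shapes for replicate numbers and filled points for the 3 arrays with CYP26A1 above 8. In TFPI2 and FRMD3 the open points with the number 3 are also the lowest of each cocaine group and those with the number 1 the highest, while in ID4 they are not.

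Replicate numbers pair the arrays of different doses, and none of the selected arrays has the number 1. CYP26A1 was highest in replicate 3 in all 6 groups, and among the 4 cocaine groups, which hold no selected array, CYP26B1 and DHRS3 were highest in replicate 3 in 4 and RARB in 2. Of the 32 higher probe sets 14 (43.8%) were highest in replicate 3 in all 4 cocaine groups, against 2184 (8.41%) of all probe sets. Of the 20 lower ones 13 (65%) were lowest there, against 2430 (9.36%) of all. The pattern of the selected arrays thus runs along with replicate number, and each selected array was also set against the 1 and 5 µM arrays of its own time and number.

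This matched comparison was chosen after the values were seen. Its direction is fixed for the counted probe sets, since the matched arrays are among the others that the counting rule used, so the sizes alone are compared. The median matched difference was 1.20 for the higher probe sets, where the comparison with all other arrays gave 1.27, and -0.83 for the lower ones, where that gave -1.33. By the same size of 1, 23 probe sets were higher, 21 of them among the 32, and 7 were lower, 6 of them among the 20. With the replicate number as a block in the fit, 21 and 8 were counted. CYP26A1 kept a matched difference of 4.83, CYP26B1 of 3.27, DHRS3 of 2.83, CLMN of 1.99 and RARB of 1.46. ID4 (-1.94), GREM1 (-1.38), CBLN2 (-1.19) and TFPI2 (-1.15) were the lower genes that kept a matched difference beyond -1. FRMD3, by contrast, went from -1.43 to -0.62, TMEM178A from -1.56 to -0.66 and FNDC5 from 1.29 to 0.60.

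The untreated arrays that were not selected did not form a uniform group in this comparison. On untreated array 2 of 24 h, 31 of the 32 higher probe sets lay above the mean of their matched arrays, with a median of 0.27, and 19 of the 20 lower ones below it, with a median of -0.22. The shares of all probe sets above or below their matched mean were not taken for this array. Its CYP26A1 stood 1.00, its DHRS3 1.02 and its CYP26B1 0.60 above the matched mean, and its ID4 differed from it by -0.65. On untreated array 1 the medians were 0.0052 and 0.068 at 6 h and -0.0334 and 0.0788 at 24 h. The medians for the higher probe sets were 1.498 and 1.417 on the selected arrays of 6 h and 0.58 on that of 24 h. They were 0.27 on untreated array 2 of 24 h and close to 0 on both arrays with the number 1. The probe sets were counted for their values on the selected arrays, so the place of those arrays in this order is fixed in part.

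**Figure D4:**
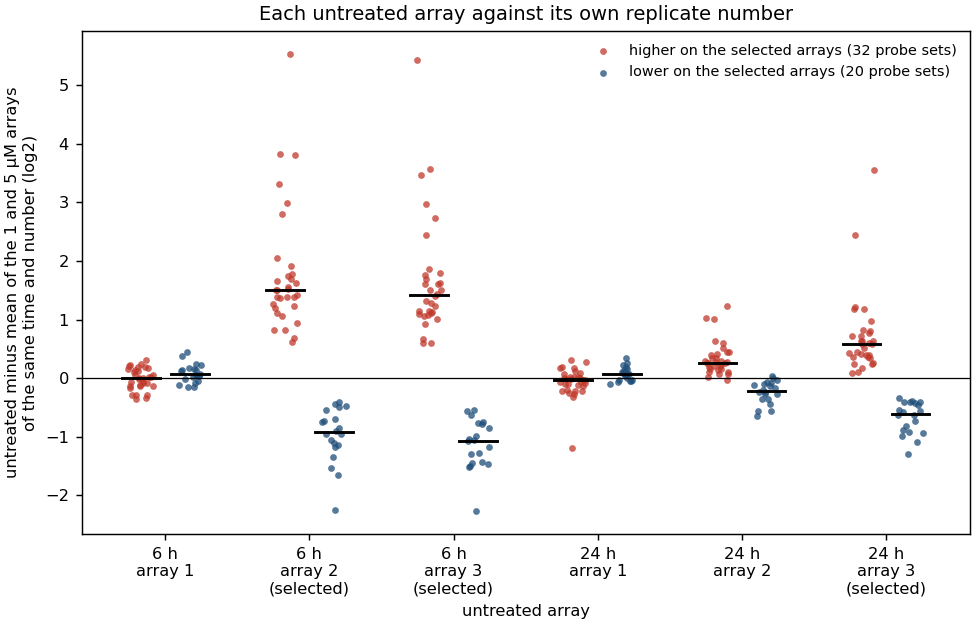
Each untreated array minus the mean of the 1 and 5 µM arrays of its own time and replicate number, on the log2 scale, with 1 point a probe set for the 32 counted as higher and the 20 counted as lower, and bars at the medians. The medians of both sets lie near 0 on array 1 of either time, at 0.27 and -0.22 on array 2 of 24 h, and farthest from 0 on the selected arrays of 6 h.

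Among the genes that handle retinoids, the breakdown enzymes CYP26A1, which chose the arrays, and CYP26B1 were both counted as higher. CYP26C1 had no probe set named on the array. Of 13 genes of storage, uptake and synthesis that passed the filter, 2 were counted as higher, DHRS3 and BCO2, and the median difference of the 13 was 0.0213. The retinaldehyde dehydrogenase ALDH1A2, which makes retinoic acid, differed by 0.90 with overlap at 6 h, but by only 0.39 in the matched comparison. ALDH1A3, another enzyme of that step, differed by -0.52 and the retinol dehydrogenase RDH10 by -0.55, and the retinol transporter STRA6 by 0.0149. CRABP2, which carries retinoic acid to the nucleus, had 12.55 and 12.45 at 6 h against 11.99 to 12.28, and 11.999 at 24 h against 10.84 to 11.50. Its difference was 0.54, with no overlap at either time.

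Of 6 receptor genes, RARB alone was counted, and RARA differed by 0.35 without overlap. The differences of RARG, RXRA, RXRB and PPARD ranged from -0.0675 to 0.17. None of the 8 corepressor and coactivator genes was counted, with a median of 0.0419. Over all 12278 genes, at the brightest probe set, 19 were counted as higher and 8 as lower, 6.92% had no overlap, and the median was 0.0102.

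HOX genes, which give positional identity along the body axis and are classic targets of retinoic acid, differed by less. None of the 12 that passed the filter was counted, but the difference was above 0 in all 12, from 0.14 to 0.84 with a median of 0.49, and 7 of 12 (58.3%) had all selected arrays above all others of their time. HOXD4 had the largest difference, 0.84, with 8.92 and 8.94 at 6 h against 7.73 to 8.16. At 24 h its selected array had 8.9708 and the highest of the others 8.9720, so the groups touched. HOXD8 (0.69), HOXC4 (0.65), HOXC5 (0.62), HOXD10 (0.56), HOXD1 (0.54), HOXD9 (0.43) and HOXC6 (0.31) were the 7 with no overlap. In the matched comparison the median of the HOX genes was 0.42, and 8 of 12 lay above both matched arrays in every selected array, against 13% of all genes, but for the 7 without overlap this follows from their separation. The 8 HOX cofactors had a median of 0.0437 and 0 were counted.

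**Figure D5:**
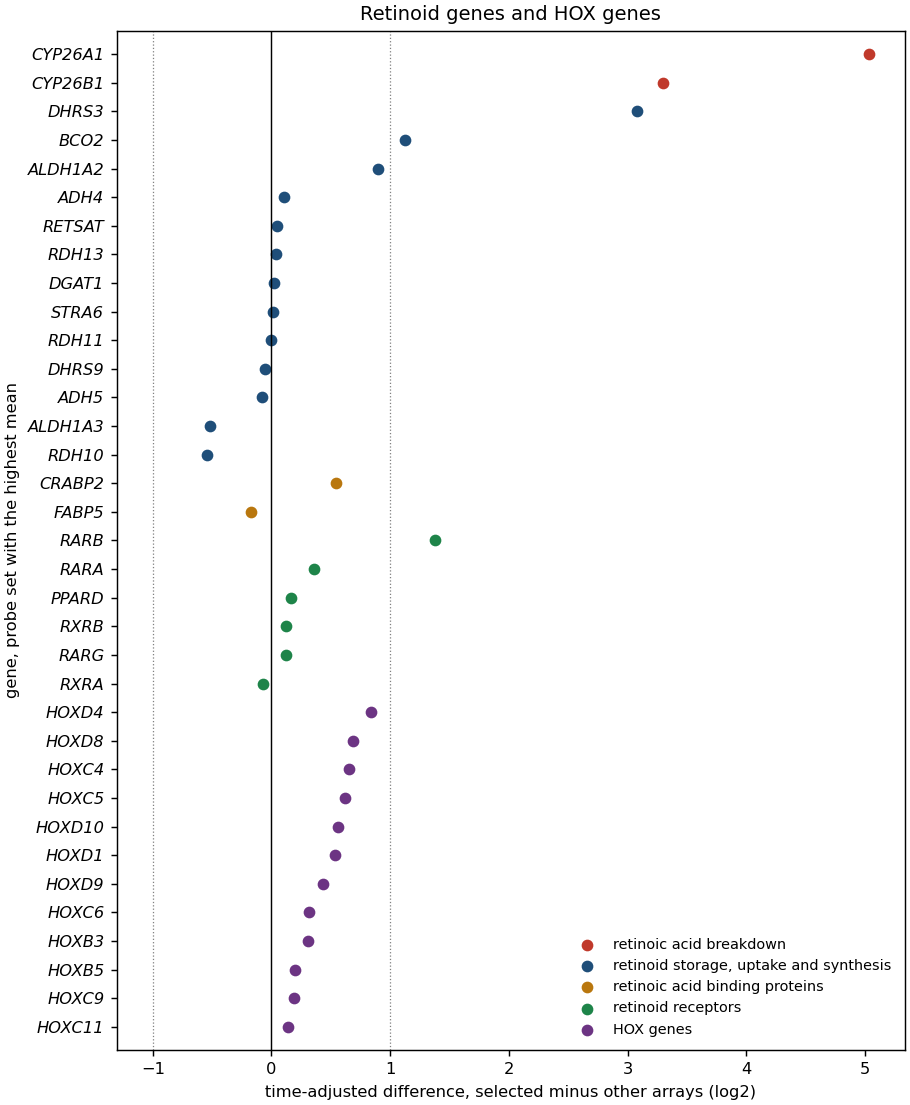
Time-adjusted difference between selected and other arrays, on the log2 scale, for the retinoid genes by role and the HOX genes, each at its brightest probe set, with dotted lines at a difference of 1 in either direction. CYP26A1, CYP26B1, DHRS3, RARB and BCO2 lie beyond the line, and the 12 HOX genes lie between 0.14 and 0.84.

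Of a wider list of genes that retinoic acid induces in many cell types, 20 passed the filter, 0 were counted, and the median was 0.0202. PLAT, the tissue plasminogen activator, had no overlap, with 8.96 and 8.90 at 6 h against 7.75 to 8.40, 8.47 at 24 h against 7.52 to 8.21, and a difference of 0.78. TGM2, transglutaminase 2, differed by 0.65 and the neurite guidance gene NAV2 by 0.64, both with overlap at 24 h. RET, the receptor for glial cell line-derived factors, differed by 0.31 without overlap at its brightest probe set. Further probe sets of RET gave 0.26 and 0.34, both with overlap at 24 h. The neurotrophin receptor NTRK2 differed by 0.44 with overlap.

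Of the genes of neuroblastoma cell identity none was counted, but single members differed in both directions. The 22 adrenergic transcription factors ranged from -0.95 for INSM2 to 0.54 for TBX2 with a median of -0.0013, and 3 of them differed by over 0.5 in size. PHOX2A differed by 0.45 and MYCN by 0.15. The 20 mesenchymal markers had a median of -0.33, and 9 differed by over 0.5 in size, against 365 of all 12278 genes. VIM, the intermediate filament vimentin, had 11.66 and 11.50 at 6 h against 12.29 to 12.49, and 12.26 at 24 h against 12.73 to 12.99, a difference of -0.78 that was -0.75 in the matched comparison. TGFBR2, a TGF-beta receptor, differed by -0.64 without overlap, whereas NOTCH2 differed by 0.63 in the other direction. In the matched comparison the mesenchymal median was -0.0850. The catecholamine and cholinergic genes had a median of -0.13 over 21 genes, and TH did not pass the filter. None of 25 proliferation genes was counted or had groups without overlap, with a median of 0.0213. Among 25 neurite and cytoskeleton genes 0 were counted, with a median of -0.0505.

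The counted genes shared position in a few cases. Of the 27 pairs of counted genes on the same chromosome, 3 had at most 10 protein-coding genes between them in RefSeq, and each pair had the same direction. DHRS3 and VPS13D on chromosome 1 are direct neighbours, with differences of 3.08 and 1.52. CNGA1 and TXK on chromosome 4, with 1.25 and 1.41, are separated by NIPAL1, and the lower genes TFPI2 and GNG11 on chromosome 7 by GNGT1. Neither of the genes between had a named probe set above the filter. Position was examined after the values were seen, and its part in the differences was not tested.

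Outside the selected arrays, the genes whose values ran most like CYP26A1 were sought over the 15 other arrays, as the correlation of deviations from the mean of each time. DHRS3 came first with r = 0.89, followed by HEBP2 (0.88), HOXD8 (0.87), TXK (0.84), RAB42 (0.83), CNGA1 (0.82), COL26A1, CALCA and CSRNP3 (0.81 each) and ELFN1 (0.80). The r was 0.76 for CYP26B1 and 0.49 for RARB, while the median over all probe sets was -0.0034 and the 99th percentile 0.668. These arrays share replicate numbers, and CYP26A1 itself varied only between 4.92 and 6.31 among them, around the signal filter of 5.32. CALCA, the calcitonin gene, differed by 1.34 between selected and other arrays and ELFN1, a synaptic protein, by 1.44, both with overlap.

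The cocaine arrays gave a comparison that held no selected array, 5 against 1 µM, with 3 arrays a dose. It is not fully independent of the selection. All 12 cocaine arrays lay below the threshold of CYP26A1 and were among the others of the counting rule. Small dose differences of CYP26A1 and of the 52 counted probe sets are thus fixed in part. The main fit held no term for the replicate number, so its p-values, SEs and intervals leave the pairing out. At 6 h limma called 0 of 25961 probe sets (0%) at an adjusted p under 0.10, with 1909 at an unadjusted p under 0.05 and a smallest adjusted p of 0.295, and at 24 h 0 (0%), with 1481 and 0.437. With the replicate number as a block 306 of 25961 were called at 6 h, and 0 at 24 h. None of the 306 was among the 52 counted probe sets, where so small a share would put few or none. CYP26A1 differed by 0.14 (SE 0.176; 95% interval -0.28 to 0.56) at 6 h and by 0.0155 (SE 0.381; interval -0.90 to 0.93) at 24 h. The interval of CYP26B1 ran from -0.22 to 0.21 at 6 h and from -0.27 to 0.28 at 24 h. A dose difference as large as that between selected and other arrays lay outside both intervals. The counting rule had, however, already required all cocaine arrays to lie below the selected ones. An unadjusted p under 0.05 was reached by 2 of the 52 counted probe sets at 6 h, against 1909 of all 25961. At 24 h it was reached by 0 of the 52, against 1481 of all. The largest difference among the 52 was 0.34 at 6 h and 0.48 at 24 h in size. At 24 h 23 of the 32 higher probe sets had a difference above 0, with a median of 0.0346, and 1 of the 20 lower ones, with a median of -0.15, while the median over all probe sets was -0.0157. At 6 h 14 of 32 and 14 of 20 were above 0, with medians of -0.0064 and 0.0503, beside -0.0074 over all probe sets. The shares of all probe sets above 0 were not taken.

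Markers of other cell types and of RNA quality were read on the same arrays, on which fewer cells of a type and less RNA per cell cannot be told apart. Of the sympathetic neuroblast markers 8 of 9 on the array were above the filter, with mean levels of 10.07 and 10.08 on the selected arrays of 6 h against 9.94 to 10.07. Of the Schwann cell markers 2 of 3, of the fibroblast markers 5 of 6, of the epithelial markers 2 of 6 and of the blood and endothelial markers 1 of 6 were above it. The mean level of the fibroblast markers was 7.97 and 8.59 on the selected arrays of 6 h, within the 7.86 to 8.74 of the others, and 8.47 at 24 h, within 8.46 to 9.18. The 3′ minus 5′ difference of ACTB was 1.12 and 0.89 on the selected arrays of 6 h against 0.49 to 0.72 on the others, without overlap, but 0.65 at 24 h, within 0.42 to 1.03. The spike-in difference between bioD and cre at 6 h was -1.06 and -1.02 on the selected arrays and -1.11 on the third untreated array, against -1.64 to -1.50 on the cocaine arrays. The part of these measures in the differences was not tested. GAPDH differed by -0.0513, ACTB by -0.0922 and HPRT1 by -0.22, the last without overlap.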

How the data were processed

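Expression was measured on 18 Affymetrix U133 Plus 2.0 arrays. The deposited values are on the log2 scale and, per the study's methods, were produced by the authors through RMA, the arrays of each time on their own. Versions are not given in the sources used here. The table holds 54675 probe sets, of which 62 controls and those with a mean over 18 arrays at or below log2(40), 5.32, were left out. Symbols came from the annotation of the array, updated through the RefSeq table of GRCh38.p14. A probe set with several genes or none was not named, and a gene was named by its probe set with the largest difference or, in lists, the highest mean.

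The time-adjusted difference is the coefficient of a least-squares fit with selection and time as terms. The 5 and 1 µM arrays were compared with limma 3.58.1 in R 4.3.3 (lmFit, eBayes, Benjamini-Hochberg over 25961 probe sets, adjusted p under 0.10), after a test on simulated data. Version 1.17.8 of data.table and version 2.3.3 of pandas served for tables and matplotlib 3.10.9 for plots in Python 3.11.15. Named were the 4 marker genes, all counted genes, up to 6 counted and 3 further members of each of 23 lists, some reference genes and the 10 genes most like CYP26A1. The neighbouring genes and the matched comparison were chosen after their values were seen. The members and lists were chosen with earlier results of these data known. Residuals from the group means correlated at 0.363 to 0.755 (6 h) and 0.373 to 0.734 (24 h) between arrays that share a number, over 9 pairs each, but at -0.619 to 0.0851 (6 h) and -0.585 to 0.180 (24 h) where numbers differ, over 18 pairs each. Replicate numbers from the labels were thus treated as pairing the arrays in the matched comparison and in the replicate block. The main fit of 5 against 1 µM held no term for them. The labels call the replicates biological, but do not say that they came from separate cultures beyond the pools of 3 dishes. The p-values thus measure only the spread between these arrays. The number of arrays limits the precision.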

Additional observations from a re-analysis of the deposited data

Results flagged for a closer look

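ZNF536, a zinc finger repressor in the list of adrenergic transcription factors, differed by 0.0866 at 6 h and by -0.0981 at 24 h between selected and other arrays, with the selected arrays above all others at 6 h and below all others at 24 h. The values are drawn to attention by these opposite directions. The difference between the times was not tested, 24 h has 1 selected array, and both sizes are small on the log2 scale. Over all probe sets kept, 166 had such opposite directions without overlap, with a size at 6 h of up to 0.97.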

How the results depend on the processing

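The numbers of probe sets counted as higher and lower, 32 and 20, became 74 and 181 against only the untreated arrays, 49 and 31 at 6 h only, and 26 and 82 at 24 h only. They were 102 and 123 at a difference of log2(1.5), 6 and 0 at a difference of 2, 41 and 54 with overlap allowed, 19 and 8 with 1 probe set per gene, 21 and 8 with the replicate block, and 23 and 7 in the matched comparison, which was added after seeing the data. Leaving out 1 array in turn gave 27 to 49 higher and 16 to 77 lower probe sets, with 77 lower without untreated 6 h array 2, and 49 higher and 31 lower without untreated 24 h array 3. The other signal filters, centring and quantile normalization moved neither count by over 1.5 times. For 5 against 1 µM, 0 probe sets were called at either time. With the replicate block 306 were called at 6 h, and without 1 µM 6 h array 2 3 were, in a range of 0 to 3 over the arrays left out. At 24 h 2 were called with all 9 arrays of the time, and 0 for each array left out. None of these alternatives reversed a direction of a named gene that was followed through them. The cause of the changes was not tested.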

Other observations

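Some genes of other pathways had smaller differences once replicate numbers were matched. BCL2, the antiapoptotic gene, differed by 0.84, with 10.79 and 11.42 at 6 h against 9.81 to 11.06, but by 0.28 in the matched comparison. The inhibitory SMAD6 (0.77) and SMAD7 (0.66), which dampen BMP and TGF-beta signals, had matched differences of 0.12 and 0.0397. INSM2, a zinc finger factor, went from -0.95 to -0.12 and MAOB, monoamine oxidase B, from -0.87 to -0.19. NPY, neuropeptide Y, kept -0.44 of -0.78, and the ERK inhibitor SPRY1 -0.30 of -0.71.

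BCL2L11, a proapoptotic member of the BCL2 family, behaved otherwise, with 9.78 and 9.88 at 6 h against 9.19 to 9.32, 10.25 at 24 h against 9.69 to 10.18, and a matched difference of 0.43 against 0.50. TGM2 had a larger matched difference (0.97) than against all other arrays (0.65). PHOX2A, a factor of sympathetic identity, had 0.51 and 0.45, with no overlap at 6 h and overlap at 24 h.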
